A study of Solanum lycopersicum x Solanum pennellii and Solanum lycopersicum with 7 samples.

Results

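In leaves of the tomato introgression line IL3-2, 263 listed genes had at least 10 sequencing counts in each of 3 libraries and no count in any of 3 libraries of the line IL2-6. They were 263 of 34725 listed gene identifiers, or 0.757%. Both lines carry chromosome segments of the wild relative Solanum pennellii in the background of the cultivated tomato M82. The number in a line's name gives the chromosome of its segment, chromosome 2 in IL2-6 and chromosome 3 in IL3-2. The labels give enhanced biomass production as the phenotype of IL2-6. Plants grew in the field under natural conditions, and no treatment, plant age or time of sampling is given in the labels. A further library of M82 entered the series as a list of sequence variants and has no gene counts here. The 263 genes are called members below. Since the counts themselves chose them, their difference between the lines is described below without a test.

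A count is a read assigned to a gene as the reference annotation draws it, so a gene at 0 is one to which no read of that library was assigned. An introgression line differs from its cultivated parent mainly inside its segment, where genes come in the wild relative's version. Outside the segments of both lines, IL2-6 and IL3-2 share the M82 background. Tomato identifiers carry the chromosome and the order along it: Solyc03g078470.2 is a chromosome 3 gene, and the digit after the point is the version of its gene model. Chromosome number 0 holds genes that were not placed. The deposited tables do not pair identifiers with names, functions, positions or lengths, so the genes are called by identifier and no role is given. With no lengths, a higher level below means more reads and not more transcripts.

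The IL2-6 libraries held 18479252 to 21320790 counts and the IL3-2 libraries 28828109 to 40146308, so each IL3-2 library was deeper than each IL2-6 library. The labels name 2 library kits, a single-end one and one that keeps strand, but not which libraries were made with which, and the IL3-2 labels alone carry a lane and flow cell code. Line and library batch can therefore not be told apart for these genes, and counts of overlapping genes on opposite strands, or of near-identical copies, are uncertain. Nothing in the labels ties libraries of 1 line to separate plants, and the spread behind the p-values may then be technical rather than between plants. Leaf markers were not checked, because the identifiers have no names here.

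The most abundant of the 263 genes was Solyc12g095950.1 on chromosome 12, with 1007, 1447 and 1495 counts in IL3-2 replicates 1, 2 and 3. This was 36.8 ± 4.67 CPM (counts per 1000000 of the scaled library total; SD, n = 3). The floor for IL2-6 was set at 3 counts over its 3 libraries together, or 0.0522 CPM. Against it the gene was at least 705-fold higher in IL3-2, where the IL3-2 level in such folds is the counts summed over the libraries per summed scaled total and not the mean CPM. Next came Solyc04g080860.1 on chromosome 4, with 623, 808 and 988 counts or 22.4 ± 1.72 CPM (SD, n = 3). The unplaced Solyc00g102000.1 had 494, 815 and 1142 counts and 22.3 ± 5.54 CPM (SD, n = 3). These genes were at least 432-fold and at least 438-fold higher in IL3-2. All 3 IL3-2 libraries read these genes in quantity, while the IL2-6 libraries together held no read of them.

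The other genes among the 12 with the highest levels ran from 20.7 to 11.6 CPM. Solyc07g039290.1 had 20.7 ± 3.60 CPM and Solyc11g051200.1 had 20.5 ± 2.56 CPM (SD, n = 3 each). Solyc11g027660.1 and Solyc00g006690.2 both stood at 17.4 or 17.3 CPM, with SDs of 4.31 and 3.19. Solyc06g005210.1 had 16.5 ± 2.58, Solyc10g084360.1 had 14.7 ± 1.47 and Solyc00g012430.1 had 13.9 ± 1.06 CPM (SD, n = 3 each). The list ended with Solyc09g092000.2 at 13.6 ± 1.12 and Solyc11g027770.1 at 11.6 ± 1.41 CPM. Each gene differed from the next in this order by less than the larger of their SDs, except Solyc12g095950.1 from Solyc04g080860.1 and Solyc09g092000.2 from Solyc11g027770.1. The 12 genes came from 8 chromosome numbers, 3 of them were unplaced, and none was on chromosome 3, the chromosome of the IL3-2 segment.

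Most of the 263 genes were far lower. Their median count was 33, 39 and 52 in IL3-2 replicates 1, 2 and 3, and their median level was 1.15 CPM, with quartiles of 0.615 and 2.93 and a range of 0.303 to 36.8. All 20823 tested genes of the series had a median of 14.1 CPM in IL3-2. Of the 263 genes, 143 had at least 1 CPM, 38 at least 5 CPM, 15 at least 10 CPM and 5 at least 20 CPM. Together they took 0.0702%, 0.0823% and 0.0791% of the counts of IL3-2 replicates 1, 2 and 3. Because so many were low, the absence of IL2-6 counts set a modest bound for many of them. Against the floor, 219 genes were at least 10-fold higher in IL3-2, 68 at least 50-fold and 37 at least 100-fold. The median bound was 22.0-fold and the lowest 5.72-fold.

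**Figure D1:**
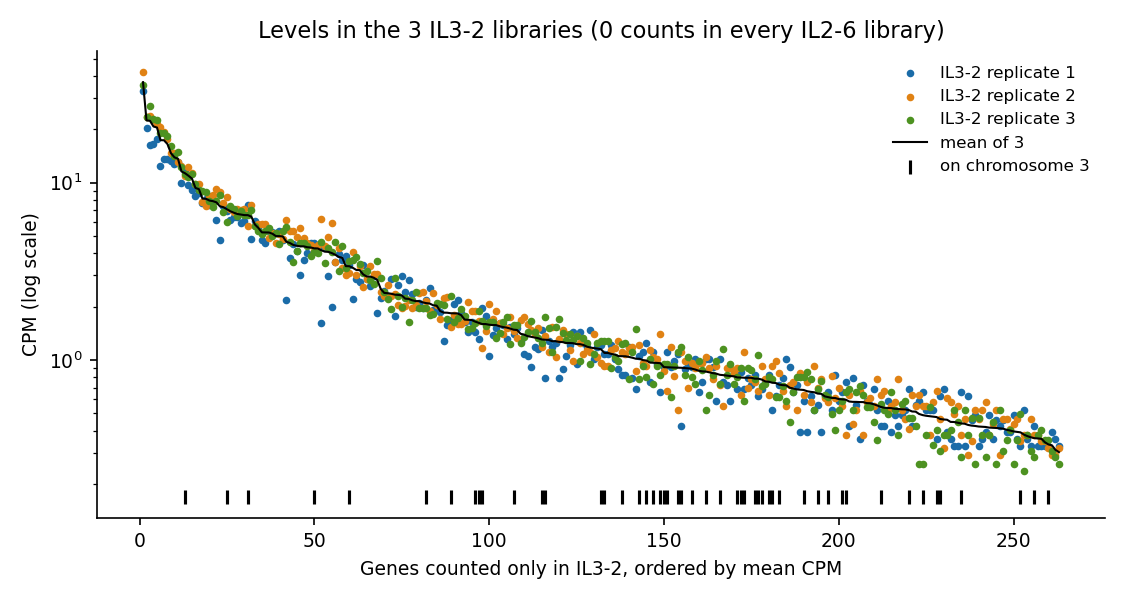
Level of each of the 263 genes in the 3 IL3-2 libraries, as CPM on a log axis, with genes ordered by their mean (black line) and marks at the bottom for the 50 genes on chromosome 3. Levels run from a mean of 36.8 CPM down to 0.303 CPM, and the chromosome 3 marks gather in the lower part of the order.

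The 3 IL3-2 libraries gave similar levels for most of these genes. The highest library was under 2 times the lowest for 236 of 263 genes, with a median ratio of 1.35 and a range of 1.03 to 3.88. The coefficient of variation (SD over mean) had a median of 15.8%. Among the 38 genes of at least 5 CPM it was smallest for Solyc02g043940.1, with 5.25, 5.20 and 5.02 CPM, and for Solyc03g078470.2, with 11.8, 10.9 and 11.2 CPM. It was largest for Solyc04g071090.2, with 4.73, 8.83 and 8.50 CPM, and for Solyc11g027660.1, with 12.4, 20.5 and 19.1 CPM. In both of the latter, replicate 1 was the low library. Replicate 1 was lowest for 27 of the 38 genes of at least 5 CPM and for 87 of the 225 below that level. The deviation of this library was thus shared by many of the more abundant members. How often replicate 1 was lowest among other genes was not counted, so this may not be particular to the members.

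The minimum of 10 counts divided genes that were nearly alike. Just inside it were Solyc00g195360.1 with 10, 11 and 11 counts, Solyc01g104940.1 with 13, 10 and 22, and Solyc02g072330.1 with 16, 13 and 10. Just outside were Solyc02g080250.1 with 9, 13 and 11 counts, Solyc03g046320.2 with 14, 9 and 10, and Solyc03g093370.1 with 9, 11 and 9, none with an IL2-6 count. The requirement of no IL2-6 count was as fine a division. Besides the 263 genes, 94 genes with at least 10 counts in each IL3-2 library had 1 count over the IL2-6 libraries, 49 had 2 and 61 had 3. A further 2190 genes without IL2-6 counts had some IL3-2 counts but under 10 in a library, and 7768 had none in either line.

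Thinning to equal totals removed part of the genes. With every library thinned at random to 18479252 counts, the smallest total, 194 of the 263 genes (73.8%) still had at least 10 counts in each IL3-2 library. In 10 further random draws the number was 188 to 196, and 164 genes passed in all 11 draws. The 69 genes lost in the first draw had lowest IL3-2 counts of 10 to 20 as deposited and 3 to 9 after thinning. The 194 genes that passed had a median lowest count of 46.5 as deposited. Another 6 genes passed only after thinning, when their last IL2-6 counts were lost, which made 200 in all. The mirrored rule, no count in IL3-2 and at least 10 in each IL2-6 library, found 60 genes as deposited, of which 58 passed after thinning (58 to 60 in the further draws). The lines still differed after thinning in the number of genes with a count, 23103 to 23129 in IL2-6 and 24282 to 24323 in IL3-2. At equal totals, 200 genes were counted only in IL3-2 and 65 only in IL2-6.

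By identifier, genes counted only in IL3-2 came from every chromosome number, with 12 to 50 genes on each numbered chromosome. Chromosome 3 held 50, or 19.0% of the 263, which was 1.49% of its 3350 listed genes. The 11 other numbered chromosomes held 203 of 30488 listed genes (0.666%), from 0.478% on chromosome 2, where the IL2-6 segment lies, to 1.02% on chromosome 8. The unplaced genes held 10 of 887 (1.13%). Unplaced genes with IL3-2 reads were few, and the 10 made up 7.09% of the 141 unplaced genes with at least 10 counts in each IL3-2 library. On the same base the share was 2.33% on chromosome 3 and 1.10% on the 11 other numbered chromosomes. After thinning, 38 of the 50 chromosome 3 genes still passed (76.0%), as did 147 of 203 on the other numbered chromosomes (72.4%) and 9 of the 10 unplaced genes. Genes of the mirrored rule were placed otherwise, with 29 of 60 on chromosome 1 and 20 on chromosome 3.

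**Figure D2:**
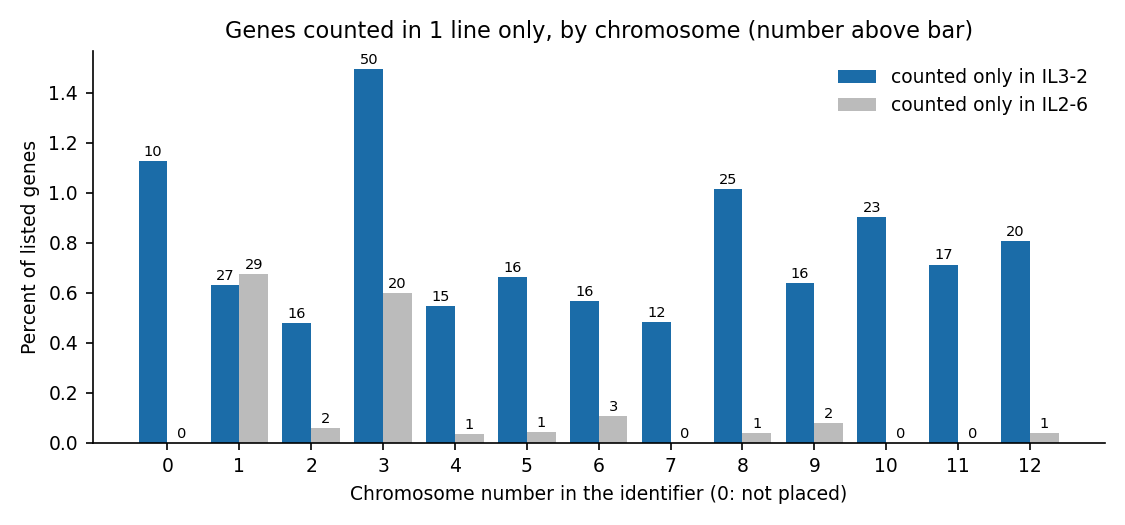
Percent of the listed genes of each chromosome number that were counted only in IL3-2 (blue) or only in IL2-6 (grey), with the number of genes above each bar. Chromosome 3 has the tallest blue bar, with 50 genes or 1.49% of its listed genes, and chromosome 1 has the tallest grey bar, with 29 genes.

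Along chromosome 3 the genes were unevenly spread. With the listed genes of each chromosome cut in identifier order into 10 sections of equal size, sections 3, 4 and 5 of chromosome 3 held 13, 15 and 7 of its 50 genes. These 3 sections, from Solyc03g033690.1 to Solyc03g093110.2, had 35 of the 445 genes with at least 10 counts in each IL3-2 library (7.87%), and 29 of the 35 passed after thinning. The other 7 sections of chromosome 3 had 15 of 1703 such genes (0.881%). On the other numbered chromosomes the share was 1.71% in sections 3 to 5 (72 of 4221) and 0.921% in the rest (131 of 14216). Outside sections 3 to 5, chromosome 3 therefore lay at the level of the other chromosomes. Sections 3 to 5 also held 15 of the 20 mirrored genes of chromosome 3, so genes counted only in 1 line gathered there in both directions. These sections were singled out after the counts per section had been seen and were not tested. On the other numbered chromosomes a section held a median of 2 genes (range 0 to 8), and the richest was section 2 of chromosome 1 with 8. Those were 8 of its 129 genes with at least 10 counts in each IL3-2 library. On this base section 3 of chromosome 8 had 5 of 82 and section 5 of chromosome 11 had 4 of 66. Sections 3, 4 and 5 of chromosome 3 had 13 of 145, 15 of 121 and 7 of 179, so its section 5 had a smaller share than these.

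**Figure D3:**
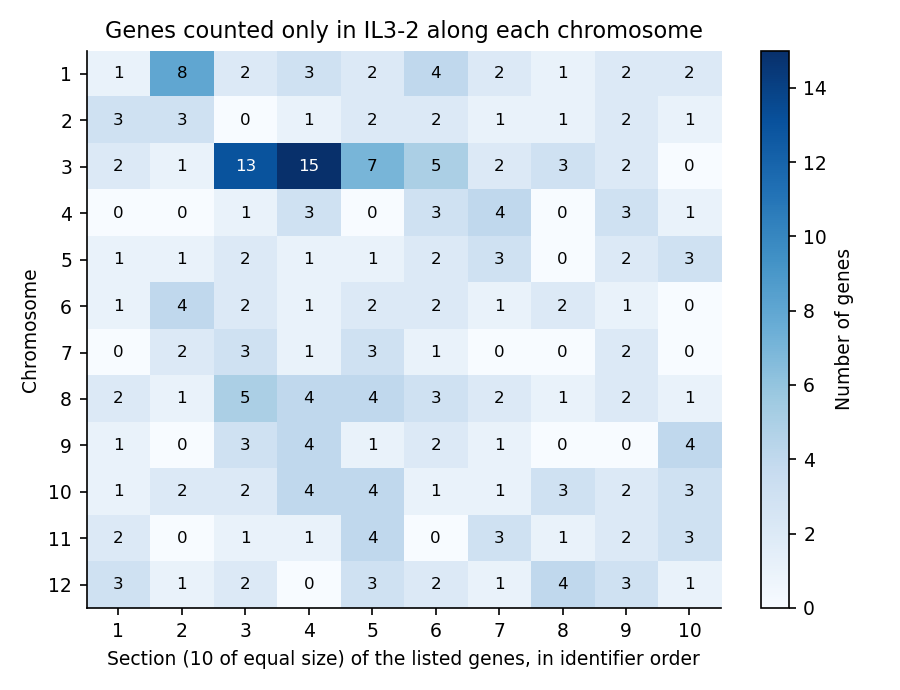
Number of genes counted only in IL3-2 in each of 10 equal sections of the listed genes of chromosomes 1 to 12, in identifier order. The darkest cells are sections 3 and 4 of chromosome 3, with 13 and 15 genes, and section 2 of chromosome 1 follows with 8.

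The chromosome 3 genes were also lower than the others. Their median level was 0.878 CPM. Of the 50, 43 had a lowest IL3-2 count under 50 (86.0%), against 128 of the 213 other genes (60.1%). Among genes whose lowest IL3-2 count was 10 to 19, 17 of 124 on chromosome 3 had no IL2-6 count (13.7%), against 68 of 1031 elsewhere (6.60%). At 20 to 49 the shares were 13.1% (26 of 198) and 3.60% (60 of 1665). From 50 counts upward the share on chromosome 3 was not higher, with 2 of 197 against 35 of 1584 at 50 to 99 and 4 of 381 against 38 of 3476 from 100 to under 300. At 300 or more, 1 of 1248 genes on chromosome 3 and 12 of 10822 elsewhere had no IL2-6 count. The excess on chromosome 3 thus lay among genes with few reads. With a minimum of 30 counts per IL3-2 library, 137 genes remained, 17 of them on chromosome 3 (12.4%).

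**Figure D4:**
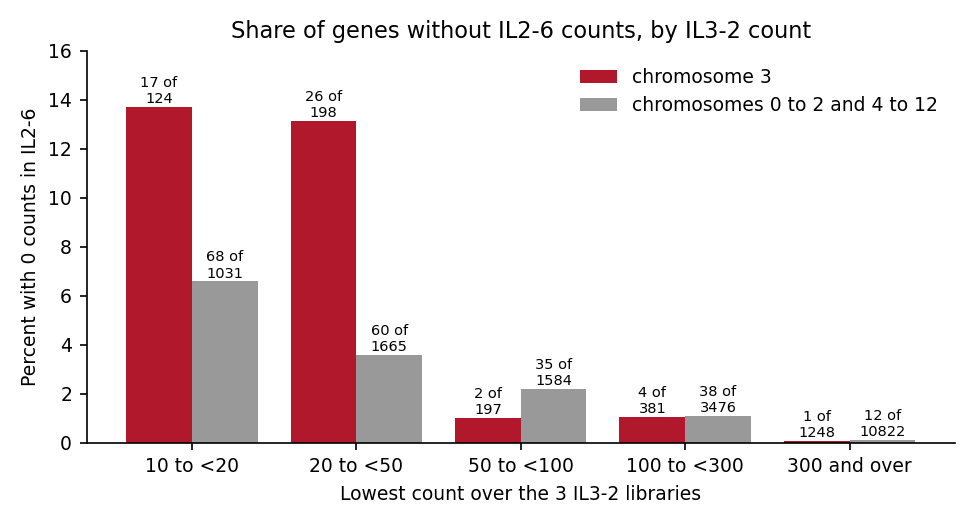
Percent of genes without any IL2-6 count among genes grouped by their lowest count over the 3 IL3-2 libraries, for chromosome 3 (red) and all other chromosome numbers (grey), with the numbers of genes above the bars. Chromosome 3 is higher in the 2 groups under 50 counts, at 13.7% and 13.1%, and not in the groups above.

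The 7 chromosome 3 genes of 50 counts or more in each library were singled out after their values had been seen. Solyc03g078470.2 led them with 358, 376 and 475 counts or 11.3 ± 0.416 CPM (SD, n = 3). Solyc03g046260.1 had 210, 286 and 255 counts, and Solyc03g044120.1 had 227, 195 and 277. Solyc03g063190.2 had 140, 142 and 172 counts, and Solyc03g078480.1 had 104, 107 and 153. Solyc03g113260.1, with 66, 74 and 83 counts, and Solyc03g115880.1, with 51, 53 and 97, lay in section 8 of the chromosome. The other 5 lay in sections 3 to 5.

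Gene models of version 1 were frequent. Of the 263 identifiers, 199 ended in version 1 (75.7%) and the rest in version 2, against 34.3% of the 20726 genes with at least 10 counts in each IL3-2 library and 35.0% of the 60 mirrored genes. Low genes had version 1 more often in general, with 57.6% of the 2847 other genes whose lowest IL3-2 count was 10 to 49, where the share among the members was 77.8% (133 of 171). The gap was wider at 50 counts or more, where 66 of 92 members (71.7%) and 29.9% of 17616 other genes had version 1. These shares pool chromosomes whose gene models differ in version: on chromosomes 11 and 12 all 37 members and 99.6% of 2759 other genes with at least 10 counts in each IL3-2 library had version 1, and on chromosome 10 the shares were 20 of 23 members and 76.1% of 1353 other genes. On chromosome 3, 40 of 50 members (80.0%) and 21.3% of 2098 other genes had version 1. On chromosomes 1, 2 and 4 to 9 the share ran from 48.1% to 76.0% among members and from 5.83% to 23.3% among other genes. Whether these models overlap other genes was not tested, since no gene positions were used here.

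In the order of listed genes, 244 of 263 members (92.8%) had no other member directly beside them, and the remaining 19 formed 9 runs. Members were only 0.757% of all listed genes, so most would have no member beside them under an even spread too. Whether runs were more frequent than under such a spread was not tested. The median distance from one member to the next was 83 listed genes over the numbered chromosomes and 32 on chromosome 3. The longest run was Solyc03g071660.1, Solyc03g071670.1 and Solyc03g071680.1 on chromosome 3. Their IL3-2 counts were 20, 48 and 35 for the first, 60, 40 and 70 for the second, and 45, 41 and 53 for the third, so none of them was high. These 3 genes lay in section 4 of the chromosome. The unplaced pair Solyc00g006680.1 and Solyc00g006690.2 had 181, 240 and 292 and 416, 666 and 803 counts. On chromosome 1, Solyc01g014280.2 had 66, 211 and 238 counts beside Solyc01g014290.1 with 12, 29 and 34. Solyc01g016550.1, with 32, 55 and 61, lay beside Solyc01g016560.1 with 92, 190 and 194. In these 3 pairs replicate 1 had the lowest count and also the lowest CPM, as in most of the more abundant members.

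The genes next to the members were not chosen by the rule and were tested in a fit over all genes. Of the 20823 genes tested, 63.3% differed between the lines, 33.0% higher in IL3-2 and 30.4% higher in IL2-6 (edgeR's quasi-likelihood F test at an adjusted p of 0.05 by Benjamini-Hochberg, with 3 libraries in each line). Of the 263 members, 221 passed the filter on low counts and all 221 were called, which the rule had all but fixed. The nearest tested gene on each side of the 253 members on numbered chromosomes that was itself no member gave 472 neighbours. Of these, 143 rose in IL3-2 (30.3%) and 158 were higher in IL2-6 (33.5%). Both were near the shares among the 20464 tested genes on numbered chromosomes that were no members, 32.3% and 30.6%. Scaled by library totals alone, 205 neighbours were higher in IL3-2 and 116 in IL2-6, so the IL3-2 share of the calls went from 47.5% to 63.9%, as it went from 52.0% to 70.6% over all tested genes. Of the neighbours, 63 (13.3%) were at least 2-fold higher in IL3-2, against 11.1% of the same 20464 genes. At least 2-fold higher in IL2-6 were 36 (7.63%), against 4.84% of the 20464. Over all tested genes, members included, these shares were 12.1% and 4.89%. The median log2 fold change of the neighbours, IL3-2 minus IL2-6, was -0.03, against 0.01 over all tested genes. Their median level was 9.56 CPM in IL3-2 and 9.23 CPM in IL2-6, against 14.1 and 13.9 CPM over all tested genes.

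Neighbours on chromosome 3 were higher in IL2-6 in a larger share than those elsewhere. There 39 of 86 neighbours (45.3%) were higher in IL2-6 and 28 (32.6%) in IL3-2, with a median log2 fold change of -0.21. On the other numbered chromosomes, 119 of 386 (30.8%) were higher in IL2-6 and 115 (29.8%) in IL3-2. The other tested genes of chromosome 3 as a whole were higher in IL2-6 in 35.0% of cases, and those of its sections 3 to 5 in 47.9% (216 of 451). Of the 56 neighbours of members in these sections, 30 (53.6%) were higher in IL2-6, near that local share. At least 2-fold, 13 of the 56 (23.2%) and 21.5% of the 451 were higher in IL2-6. Both neighbours rose in IL3-2 for 27 of 253 members, both were higher in IL2-6 for 38, and 46 had 1 of each. The 2 sides of other genes were not counted in this way, so these numbers have no share over all genes beside them. Adjacent listed genes without any IL2-6 count made up 31.8% of 506, against 28.3% of all listed genes on numbered chromosomes. The 506 included members beside other members, which had no IL2-6 count by the rule, and this raised the first share.

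**Figure D5:**
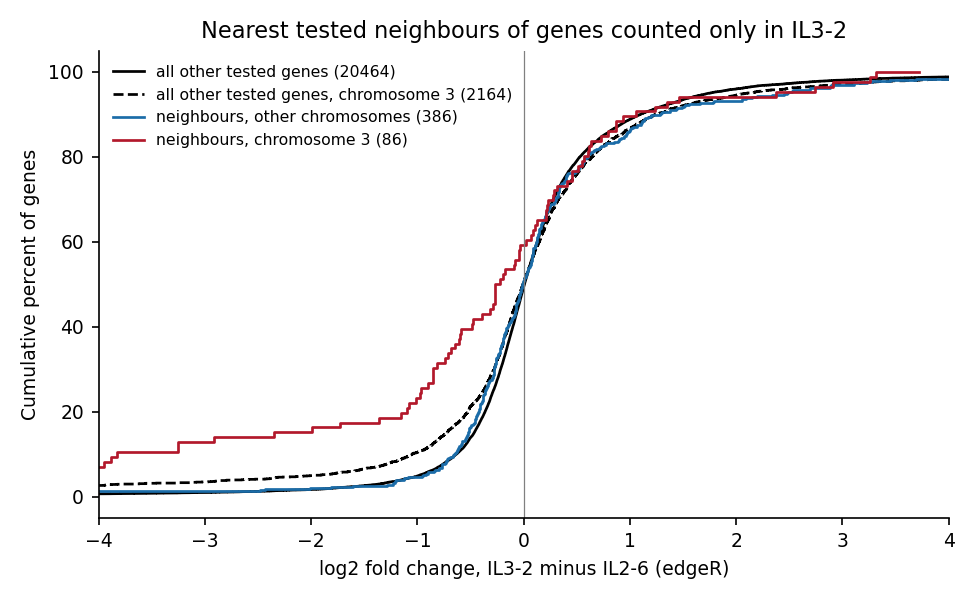
Cumulative percent of genes by log2 fold change (IL3-2 minus IL2-6, x axis shown from -4 to 4) for the neighbours on chromosome 3 (red, 86 genes) and elsewhere (blue, 386), and for all other tested genes on numbered chromosomes (black, 20464) and on chromosome 3 (dashed, 2164). The blue line follows the black one around 0, while the red line lies further left, with a median of -0.21.

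Of the 6 neighbours of the 3 most abundant placed members, 3 were called, 2 of them higher in IL3-2 and 1 higher in IL2-6. The genes on both sides of Solyc12g095950.1 did not pass the test. Solyc12g095940.1 had 6.45 ± 0.693 CPM in IL2-6 and 6.44 ± 0.828 in IL3-2, and Solyc12g095960.1 had 184 ± 23.3 and 187 ± 22.2 CPM (SD, n = 3 each; edgeR adjusted p = 0.967 and 0.848). Both groups of libraries overlapped in each gene. Of the neighbours of Solyc04g080860.1, Solyc04g080850.2 had 227 ± 15.9 CPM in IL2-6 and 241 ± 0.818 in IL3-2 (edgeR adjusted p = 0.199). That gene passed the test in 2 of 13 alternatives, lowest when scaled by library totals alone (edgeR adjusted p = 6.05e-04). Solyc04g080870.1 fell from 81.2 ± 5.33 CPM in IL2-6 to 34.6 ± 1.64 in IL3-2, a log2 fold change of -1.23 (standard error 0.06, edgeR adjusted p = 4.87e-10). Both neighbours of Solyc07g039290.1 were higher in IL3-2. Solyc07g039270.2 had 0.191 ± 0.0140 and 0.608 ± 0.0946 CPM (edgeR adjusted p = 0.00142). This gene had few reads, with 4, 3 and 4 counts in IL2-6 and 18, 18 and 30 in IL3-2. Solyc07g039310.1 had 3.75 ± 0.647 and 6.29 ± 0.554 CPM (edgeR adjusted p = 2.86e-04).

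Among neighbours that reached 5 CPM in the higher line, those with the largest rises in IL3-2 nearly met the rule themselves. Solyc06g024210.1 had 0, 0 and 3 counts in IL2-6 replicates 1, 2 and 3 and 802, 1216 and 1548 in IL3-2. IL3-2 over IL2-6 gave a ratio of 637, with a 95% exact binomial interval for counting error of 218 to 3091 (edgeR adjusted p = 1.11e-11). Solyc09g056370.1 had 1 count in IL2-6 and 217, 243 and 316 in IL3-2, a ratio of 416 (74.4 to 16448; edgeR adjusted p = 4.39e-11). Solyc11g027760.1 had 3 counts in IL2-6 and 399, 696 and 772 in IL3-2, a ratio of 334 (114 to 1619; edgeR adjusted p = 1.18e-10). Solyc06g024350.1 had 3 counts in IL2-6 and 343, 362 and 461 in IL3-2, a ratio of 208 (71.1 to 1012; edgeR adjusted p = 4.27e-11). Solyc11g027650.1 had 1, 1 and 6 counts in IL2-6 and 149, 202 and 248 in IL3-2 (log2 fold change 5.27, standard error 0.31, edgeR adjusted p = 2.49e-09). Neighbours with at most 3 IL2-6 counts and at least 10 in each IL3-2 library were nonetheless few, 6 of 472 (1.27%), against 0.743% of 20464 other tested genes.

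Of the 5 neighbours just named, 4 lay in a pair of stretches that were singled out after their values had been seen. On chromosome 11, the 11 listed genes from Solyc11g027650.1 to Solyc11g027770.1 held 3 members. Solyc11g027660.1 had 379, 705 and 808 counts in IL3-2, Solyc11g027750.1 had 139, 200 and 226, and Solyc11g027770.1 had 303, 429 and 519. Between them, Solyc11g027710.1 was read in both lines, with 586, 1586 and 423 counts in IL2-6 and 1129, 1399 and 1855 in IL3-2. There IL2-6 replicate 2 stood apart, at 92.5 CPM against 28.7 and 21.3. On chromosome 6, the 15 listed genes from Solyc06g024210.1 to Solyc06g024350.1 held 1 member, Solyc06g024230.1, with 109, 123 and 195 counts in IL3-2. Shortly past the end of this stretch lay another member, Solyc06g024380.1, with 145, 201 and 217 counts in IL3-2. Solyc06g024350.1 was the neighbour of that member, and Solyc06g024210.1 that of Solyc06g024230.1. The neighbour of Solyc06g024230.1 on the far side, Solyc06g024270.1, went the other way. It had 298, 723 and 209 counts in IL2-6 and 0, 1 and 0 in IL3-2, a ratio of 2295 (411 to 90719). IL2-6 replicate 2 was again the high library, at 42.2 CPM against 14.6 and 10.5, and without it the mean of the line fell from 22.4 to 12.6 CPM. The fall of Solyc06g024270.1 in IL3-2 was called with this library (edgeR adjusted p = 2.11e-07) and without it (edgeR adjusted p = 1.62e-12). On chromosome 11, genes read almost only in IL3-2 thus lay within a few listed places of a gene read in both lines. The gene there read only in IL2-6, Solyc11g027690.1, was low, with 6, 29 and 4 counts. On chromosome 6, genes read almost only in IL3-2 lay close to one read almost only in IL2-6. Genes there with counts in both lines were low, such as Solyc06g024290.1 with 3, 5 and 4 counts in IL2-6 and 19, 47 and 42 in IL3-2.

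Opposite patterns side by side also occurred at single genes. Solyc09g092000.2, a member with 396, 447 and 631 counts in IL3-2, lay next to Solyc09g092010.1, which had 114, 132 and 151 counts in IL2-6 and none in IL3-2. Solyc09g092010.1 was at least 247-fold higher in IL2-6, against 3 counts over the IL3-2 libraries (edgeR adjusted p = 6.87e-10). The member Solyc09g015030.1, with 15, 20 and 22 counts in IL3-2, lay next to Solyc09g015020.1 with 48, 52 and 51 counts in IL2-6 and none in IL3-2. These were the 2 members directly beside a gene of the mirrored rule, and 4 had one within 2 listed places. On chromosome 3, Solyc03g078470.2 and Solyc03g078480.1 were followed by Solyc03g078490.2, which fell from 120 ± 4.29 CPM in IL2-6 to 7.39 ± 0.478 in IL3-2 (SD, n = 3 each). On the log2 scale this was a change of -4.02 (standard error 0.07, edgeR adjusted p = 3.14e-15). Solyc03g096220.2 and Solyc03g071750.2, also on chromosome 3, were among the largest falls of neighbours that reached 5 CPM in the higher line. The first fell from 6.13 ± 0.478 to 0.186 ± 0.0675 CPM and the other from 5.57 ± 0.373 to 0.208 ± 0.0489 CPM (edgeR adjusted p = 9.94e-11 and 1.29e-10). In each of these genes the libraries of the lines did not overlap.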

How the data were processed

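Leaf RNA of 3 IL2-6 and 3 IL3-2 libraries, grouped by their titles, was analysed from the raw gene counts the authors deposited. Per the submitters' processing notes, HTSeq and TopHat2 were among the tools, beside CASAVA 1.8.2, Trimmomatic, SAMtools 1.9 and edgeR, with no role stated. The build, annotation and strand setting behind the counts are not stated there. The M82 variant list could not be joined to gene identifiers and was not used. Genes counted only in IL3-2 had 0 counts in every IL2-6 library and at least 10 in each IL3-2 library. These genes, and what is described of them, were chosen with earlier results of these data known.

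Libraries were thinned without replacement to the smallest total with fixed seeds. Genes kept by filterByExpr were tested with edgeR 4.0.16 (quasi-likelihood F test, TMM scaling, line as the only term) in R 4.3.3, with Benjamini-Hochberg adjustment over the 20823 tested genes, and the fit was tried on simulated data first. CPM are per 1000000 of the TMM-scaled total. DESeq2 1.42.0, limma-voom (limma 3.58.1), other scalings, no filter, a replicate block, thinned counts and leaving out each library were alternatives. Intervals and floors cover counting error only. Libraries of a line differed by 2.33 to 11.2 chi-square per degree of freedom, so no pair was treated as repeat deposits of 1 library. Genes were named by a rule: the 12 highest members, the 4 longest runs, genes at the threshold, the most and least variable members, and the neighbours with the largest changes among those with at least 5 CPM in the higher line or beside the 3 highest placed members. Others are marked as chosen after their values were seen. Lists by function and leaf markers were not run, because the identifiers have no names here.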

Additional observations from a re-analysis of the deposited data

How the results depend on the processing

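Over 6 counts, 89 alternative values were computed, and 79 lay within 1.5 times the reported value. The number of genes counted only in IL3-2 was 263. It was 137 with a minimum of 30 counts and 467 when up to 3 IL2-6 counts were allowed, of which 17 and 76 were on chromosome 3, and 269 to 316 when a library was left out (51 to 59 on chromosome 3). The number that passed after thinning was 194, and 92 with a minimum of 30 counts after thinning. It was 202 to 233 when a library was left out, which loosens the rule. Neighbours higher in IL3-2 and in IL2-6 numbered 143 and 158, but 63 and 36 when 2-fold was also required, and 411 and 463 of 1357 with the nearest 3 genes on each side, by construction of these settings. Leaving out a library gave 128 to 152 and 142 to 162. Calls over all genes were 13191, 3539 of them at least 2-fold, and 11970 to 13299 when a library was left out. With library totals alone in place of TMM the median log2 fold change of all tested genes moved by 0.16, and 205 neighbours were higher in IL3-2 and 116 in IL2-6. Leaving out the chromosome 3 members, chosen after seeing the data, gave 115 and 119. Deviations from the line means were not shared by same-numbered libraries (3 correlations, -0.203 to -0.008). No pairing by number was seen, but 3 correlations cannot exclude one. With a replicate block, 12496 genes were called over all, 137 neighbours were higher in IL3-2 and 156 in IL2-6. The levels of the named members kept within 1 SD in 128 of 130 alternative values. Many of these were fixed in advance, since leaving out 1 of 3 libraries cannot move a mean by 1 SD. The levels that moved were those of Solyc02g043940.1 and Solyc03g078470.2, scaled by raw library totals. At this depth a gene without IL2-6 counts may have up to 0.0522 CPM there, while the lowest member had 0.303 CPM in IL3-2.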
